A study of Mus musculus with 15 samples.

Results

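The genes described here are PARP family members linked to interferon responses, together with the E3 ligase gene Dtx3l and a pair of housekeeping PARP genes; interferon itself was not applied to these cells. They were chosen by symbol, as Parp9, Dtx3l, Parp14, Parp12, Parp10, Parp11 and Parp3 (7 genes, called the interferon-linked members) with Parp1 and Parp2 for comparison, and all 9 of them were found among the 34432 genes listed in both tables of RNA-sequencing values. CT26, a mouse colon carcinoma cell line, was studied in a pair of experiments with 3 libraries in each of 5 groups. In the knockdown experiment, cells with a control hairpin (shControl) were set against cells with a doxycycline-inducible hairpin to Prmt1 (shPrmt1) that had been given doxycycline for 3 days. Whether the shControl cells were given doxycycline, and whether a hairpin line was a pool or a clone, is not given in the sources used here. In the inhibitor experiment, wild-type CT26 cells were given vehicle, MS023 or GSK3368715, each compound at 6 µM for 48 hours. Dose, time and doxycycline are taken from the study's text, since the labels do not give them. Both compounds inhibit the type I arginine methyltransferases, to which PRMT1, the main source of asymmetric dimethylarginine in cells, belongs. The labels do not say that replicates came from separate cultures, and the study speaks only in general of independent experiments or biological replicates, so the p-values measure the spread between these libraries, which may be technical.

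PARP enzymes move ADP-ribose from NAD onto proteins or nucleic acids. PARP1 and PARP2 are bound and activated by broken DNA and build chains of ADP-ribose there, while most other members attach single units, and several of these are induced by interferon and act in antiviral defence. PARP9 pairs with DTX3L, an E3 ubiquitin ligase of the deltex family, and PARP9 and PARP14 also carry macrodomains, folds that bind ADP-ribose. The comparisons ask whether these genes change when Prmt1 is depleted or its enzyme is inhibited, and whether they do so relative to Parp1 and Parp2.

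Depth and identity of the libraries were as follows. Reads on genes ran from 17284091 to 29233738 per library in the knockdown experiment and from 40119305 to 93697833 in the inhibitor experiment, and the shPrmt1 libraries (17284091 to 20179259) were mostly shallower than the shControl libraries (19077556 to 29233738). Prmt1 had 5601 to 5717 normalized counts in shControl and 669 to 761 in shPrmt1 libraries, so the targeted gene was low in each library labelled as its knockdown, and its RNA was 14063 to 16107 normalized counts across the inhibitor experiment. Normalized counts are reads divided by the size factor of the library. Of 14 immune cell markers, 0 passed the filter on low values in the knockdown fit and 2 (Cd8a and Ms4a1) in the inhibitor fit, and their summed level was 0.324 to 1.19 RPM (reads scaled to each library's total on genes) in all 15 libraries, with Cd3e and Ncr1 at 0 throughout. Of 10 colon epithelial markers, 2 (Krt18 and Krt20) passed in the knockdown fit and 5 (Krt8, Cdx2 and Lgals4 as well) in the inhibitor fit. Epcam was at 0 in every library and Cdh1 and Cdx1 in every library of the knockdown experiment, so part of the defining set of colon epithelium was absent. Their sum was 34.5 to 38.1 RPM in shControl, 26.0 to 32.7 in shPrmt1, 21.5 to 24.3 in vehicle, 30.6 to 32.1 in MS023 and 24.5 to 27.1 in GSK3368715 libraries. This sum moved with the groups, mainly through Krt18, which averaged 27.0 RPM in shControl and 20.9 in shPrmt1 libraries. Krt18 averaged 15.7 RPM in vehicle, 23.4 in MS023 and 19.1 in GSK3368715 libraries. Krt20 differed less, at 8.44, 8.37, 6.48, 6.91 and 5.73 RPM in the same order of groups. The part of this sum in the results was not tested. The sum of 5 endothelial markers stayed at 0.545 to 1.13 RPM.

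Promoters of some members are shown, for the reasons given below, from RefSeq on GRCm38.p6, each 250 bases before and 50 bases after an annotated start. The RefSeq table held 7 promoters for 6 of the 9 members. Parp9, Parp14 and Parp10 are not in it. A core of the interferon-stimulated response element, GAAANNGAAA, and the gamma-activated site, TTCNNNGAA, the elements bound by STAT and IRF factors, were searched on both strands, and matches are in capitals. Among 32851 promoters of this length, 3.44% held the first and 8.30% the second. Dtx3l (chr16:35938978-35939277, minus strand) is shown because it lies at the head-to-head end that Dtx3l shares with Parp9, Parp12 (chr6:39118300-39118599, minus strand) because it had the largest increase with both inhibitors, Parp11 (promoter 1 at chr6:127446590-127446889 and promoter 2 at chr6:127453377-127453676, plus strand) because its starts differ in these elements, and Parp1 (chr1:180568641-180568940, plus strand) as a comparison member.
Dtx3l: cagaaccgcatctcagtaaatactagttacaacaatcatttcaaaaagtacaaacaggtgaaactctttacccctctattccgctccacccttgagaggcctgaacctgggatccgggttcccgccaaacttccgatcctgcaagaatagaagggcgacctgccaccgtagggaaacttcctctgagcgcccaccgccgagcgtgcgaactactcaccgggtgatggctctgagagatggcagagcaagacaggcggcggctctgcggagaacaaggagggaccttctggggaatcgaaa
Parp12: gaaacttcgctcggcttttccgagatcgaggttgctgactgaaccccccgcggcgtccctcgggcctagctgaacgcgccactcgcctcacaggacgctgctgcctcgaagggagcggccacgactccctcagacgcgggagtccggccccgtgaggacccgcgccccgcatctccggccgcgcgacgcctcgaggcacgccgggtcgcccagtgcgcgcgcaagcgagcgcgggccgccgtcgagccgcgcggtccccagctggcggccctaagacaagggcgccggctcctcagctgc
Parp11 promoter 1: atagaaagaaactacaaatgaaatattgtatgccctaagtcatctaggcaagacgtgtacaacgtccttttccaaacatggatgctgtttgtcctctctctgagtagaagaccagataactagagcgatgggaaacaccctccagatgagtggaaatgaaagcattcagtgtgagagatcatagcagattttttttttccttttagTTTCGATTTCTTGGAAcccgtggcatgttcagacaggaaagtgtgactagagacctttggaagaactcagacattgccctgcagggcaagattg
Parp11 promoter 2: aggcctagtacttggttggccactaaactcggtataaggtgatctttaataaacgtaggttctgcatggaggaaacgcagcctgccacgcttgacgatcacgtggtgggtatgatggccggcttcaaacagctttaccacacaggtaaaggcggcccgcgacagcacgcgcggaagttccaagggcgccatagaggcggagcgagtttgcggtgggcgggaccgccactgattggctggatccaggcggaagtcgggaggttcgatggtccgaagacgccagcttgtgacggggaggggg
Parp1: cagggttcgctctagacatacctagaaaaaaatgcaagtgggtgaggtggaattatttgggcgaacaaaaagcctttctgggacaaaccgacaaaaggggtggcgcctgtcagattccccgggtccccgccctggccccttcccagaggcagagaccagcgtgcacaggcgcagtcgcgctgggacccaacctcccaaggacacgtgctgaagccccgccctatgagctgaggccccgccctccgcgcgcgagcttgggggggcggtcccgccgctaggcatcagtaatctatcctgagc
The 7 promoters held both elements in 1 case, Parp11 promoter 1, where TTTCGATTTC (the core on the opposite strand) lay at -44 to -35 and TTCTTGGAA at -37 to -29 from the start, sharing 3 bases. The other 6 promoters, those of Parp3 and Parp2 included, had neither string of letters. These matches are descriptions of sequence and say nothing on binding in CT26 cells.

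After depletion of Prmt1, all 7 interferon-linked members had higher means, and 6 of them, all but Parp3, passed the test. In limma on log2(normalized count + 1), with Benjamini-Hochberg adjustment over all genes tested and a threshold of 0.05, these 6 were called higher and 0 lower, where 7.5% of the 11485 genes tested were called higher. Parp14 rose most, 2.60-fold on the means, followed by Parp12 at 2.42-fold and Parp10 at 1.94-fold, and their intervals overlap. The 3 shPrmt1 libraries lay above all 3 shControl libraries for each of the 7 members, as they did for 19.2% of all genes. The median log2 fold change of the 7 was 0.84, beside -0.0036 over all genes tested. In bulk RNA, more cells that respond and more RNA per responding cell cannot be told apart.

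**Figure D1:**
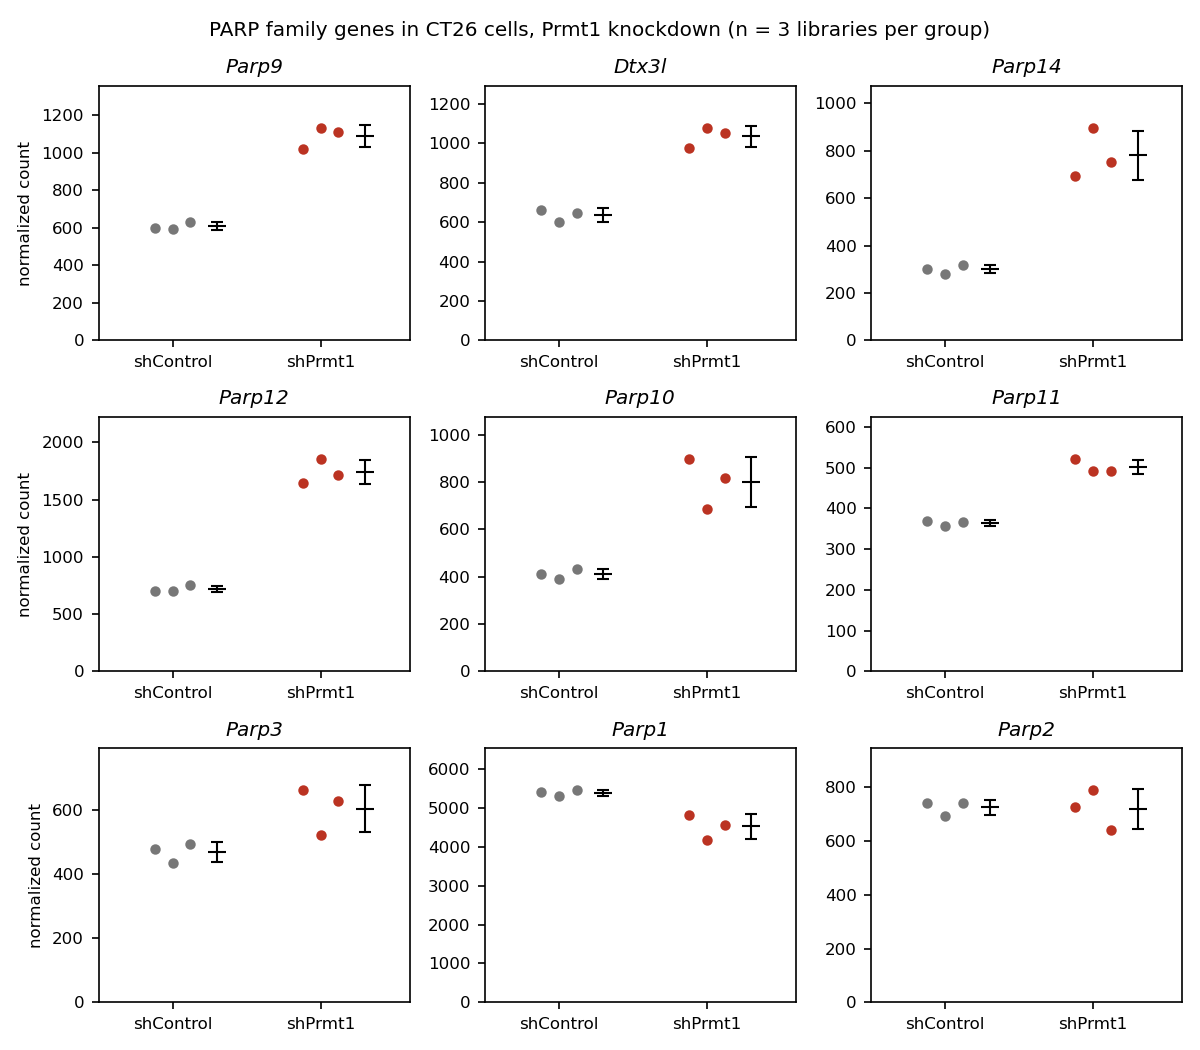
Normalized counts (y axes, starting at 0) of the 9 genes in each shControl and shPrmt1 library (points, 3 per group), with the mean and SD in black. The shPrmt1 points lie above every shControl point for the 7 interferon-linked members, below them for Parp1, and among them for Parp2.

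All 7 interferon-linked members were called higher with MS023 and 6 of them with GSK3368715 in the same test, fitted over the 9 libraries of the inhibitor experiment. Of the 13014 genes tested, 13.7% were called higher with MS023 and 5.16% with GSK3368715. Parp12 showed the largest change with each compound, 1.89-fold with MS023 and 1.72-fold with GSK3368715, where Parp14 was close at 1.69-fold. MS023 libraries did not overlap vehicle for any of the 7, as for 22.4% of all genes in that direction, and GSK3368715 libraries did not overlap vehicle for 6, as for 13.7% of all genes. The median log2 fold change of the 7 members was 0.46 with MS023 and 0.44 with GSK3368715, beside 0.0028 and 0.00042 over all genes. Both comparisons use the same 3 vehicle libraries, so they are not independent of each other. Vehicle 2 was the lowest vehicle library for 6 of the 7 members, Parp9 being the exception, and without it 7 members were called with MS023 and 6 with GSK3368715.

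**Figure D2:**
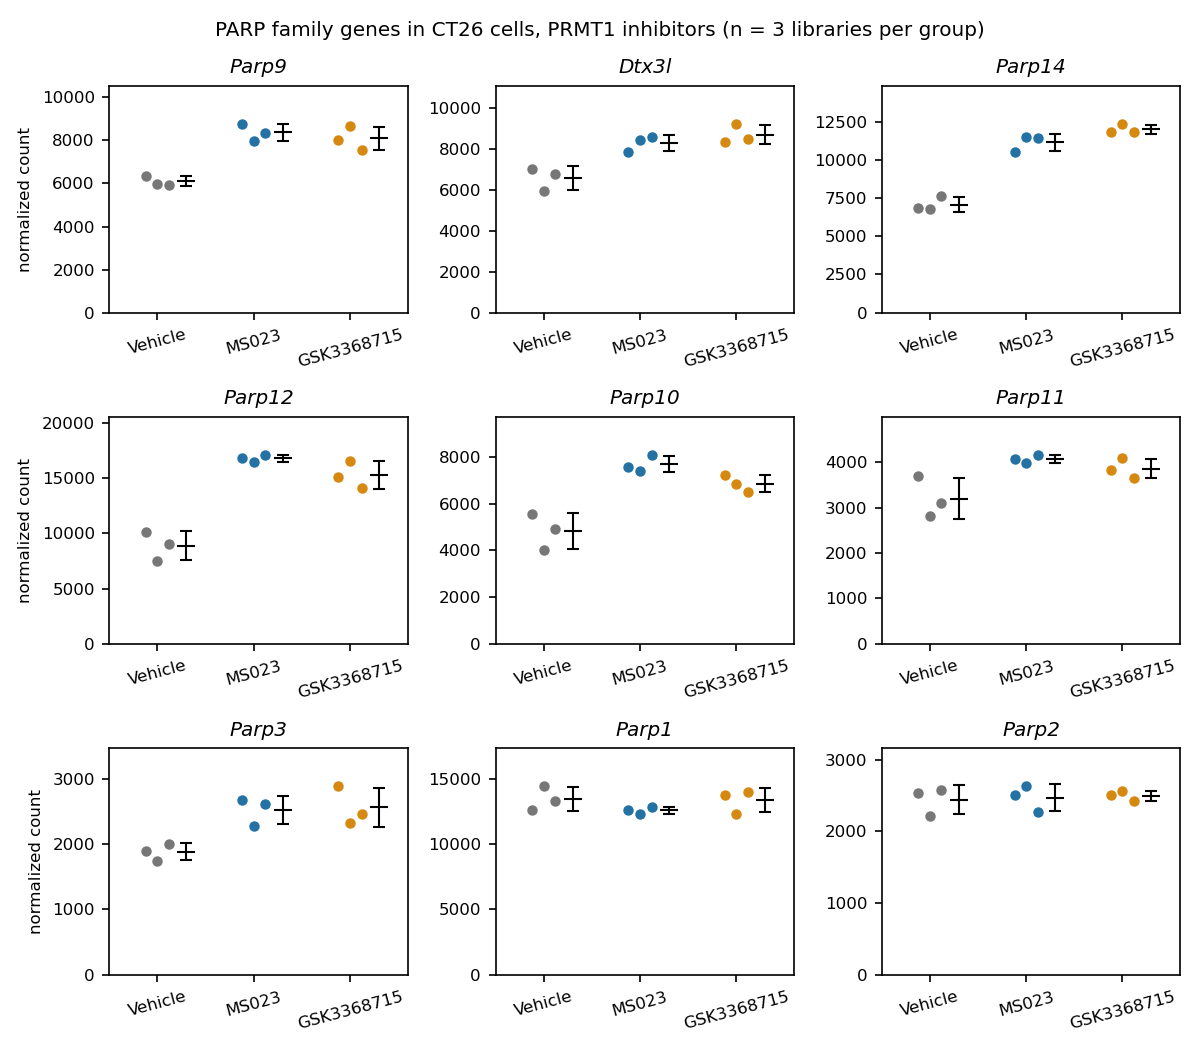
Normalized counts (y axes, starting at 0) of the 9 genes in each vehicle, MS023 and GSK3368715 library (points, 3 per group), with the mean and SD in black. The treated points lie above vehicle for the interferon-linked members, except that GSK3368715 overlaps vehicle for Parp11, and Parp1 and Parp2 overlap in all groups.

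Parp9 and Dtx3l encode the PARP9-DTX3L complex, in which DTX3L is the ubiquitin ligase, and the genes lie head to head on opposite strands of mm10 (Parp9 at chr16:35938470-35972605, plus strand, Dtx3l at chr16:35926511-35939151, minus strand). Parp9 measured 600.4, 592 and 632 normalized counts with the control hairpin, against 1019.7, 1129.7 and 1113 after Prmt1 depletion. All shPrmt1 values were high and well apart from shControl, and the log2 fold change was 0.84 (95% interval 0.66 to 1.01, limma adjusted p = 3.9e-04). Dtx3l measured 664, 599 and 647 normalized counts with the control hairpin, against 977, 1076 and 1053 after Prmt1 depletion. Again the groups were separate, with a log2 fold change of 0.70 (95% interval 0.52 to 0.88, limma adjusted p = 0.0010). In the inhibitor experiment Parp9 stood at 6359, 5977 and 5944 normalized counts under vehicle, 8772, 7991 and 8365 under MS023 and 8031, 8661 and 7576 under GSK3368715. Each treated library exceeded each vehicle library, while the treated groups overlapped each other. The log2 fold change of Parp9 was 0.46 (95% interval 0.32 to 0.59, limma adjusted p = 5.1e-04) with MS023. It was 0.41 (95% interval 0.27 to 0.54, limma adjusted p = 0.0038) with GSK3368715. For Dtx3l the vehicle libraries held 7036, 5951 and 6784 normalized counts, MS023 7864, 8458 and 8622, and GSK3368715 8354, 9245 and 8518. The second vehicle library was the lowest, and no vehicle library reached a treated one. Dtx3l changed by 0.34 (95% interval 0.18 to 0.49, limma adjusted p = 0.0058) on the log2 scale with MS023. The change with GSK3368715 was 0.40 (95% interval 0.25 to 0.56, limma adjusted p = 0.0070).

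Because the pair is encoded head to head, their ratio within a library was also taken. Parp9 over Dtx3l, in normalized counts and not per length, was 0.905 to 0.988 in shControl and 1.043 to 1.056 in shPrmt1 libraries, so the ranges did not overlap, although both lay near parity. In the inhibitor experiment the ratio was 0.876 to 1.004 in vehicle, 0.945 to 1.12 in MS023 and 0.889 to 0.961 in GSK3368715 libraries, which overlap. The gene spans share 682 bp, 458 bp of it exonic in both, and whether counting used strand is not given in the sources used here, so reads from the shared bases could be assigned to either gene.

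Parp14, a macrodomain PARP that attaches single ADP-ribose units, lies 54966 bp from Dtx3l on the same chromosome (chr16:35832874-35871544, minus strand), so that Parp14, Dtx3l and Parp9 together span 139.7 kb. Parp14 measured 303, 282 and 316 normalized counts with the control hairpin, against 695, 895 and 752 after Prmt1 depletion. The second shPrmt1 library was the highest and the lowest of them was still far above shControl. The log2 fold change was 1.37 (95% interval 1.12 to 1.62, limma adjusted p = 2.1e-04). With inhibitors, Parp14 had 6839, 6787 and 7609.7 normalized counts under vehicle, 10498, 11511 and 11461 under MS023 and 11809.9, 12367 and 11809 under GSK3368715. Vehicle was separate from both treatments, and all GSK3368715 values lay above all MS023 values. Against vehicle, Parp14 changed by 0.66 (95% interval 0.52 to 0.79, limma adjusted p = 7.0e-05) with MS023. With GSK3368715 its log2 fold change was 0.76 (95% interval 0.63 to 0.89, limma adjusted p = 1.8e-04). Parp14 shares 110 bp of exon with the same-strand gene model Gm49730, which has no row in the tables.

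Parp12, Parp10 and Parp11 encode mono-ADP-ribosyltransferases without macrodomains. PARP12 has zinc fingers that bind RNA and restricts several viruses. Parp12 (chr6:39086410-39118349, minus strand) measured 704, 699.8 and 753 normalized counts with the control hairpin, against 1647, 1851 and 1716 after Prmt1 depletion. All shPrmt1 values were far above every shControl value, and the log2 fold change was 1.27 (95% interval 1.10 to 1.44, limma adjusted p = 5.1e-05). With vehicle and inhibitors it had 10167, 7480.0 and 9062 normalized counts under vehicle, 16825, 16525 and 17138 under MS023 and 15102, 16616 and 14139.8 under GSK3368715. The vehicle libraries were the more spread, the second library being the lowest as for Dtx3l, and none reached a treated library. The log2 fold change of Parp12 was 0.93 (95% interval 0.71 to 1.15, limma adjusted p = 1.4e-04) with MS023. With GSK3368715 it was 0.79 (95% interval 0.57 to 1.00, limma adjusted p = 0.0014).

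PARP10 was found as a partner of MYC and modifies kinases and other proteins. Parp10 (chr15:76231174-76243441, minus strand) measured 411, 392 and 432 normalized counts with the control hairpin, against 896, 687 and 817 after Prmt1 depletion. The shPrmt1 libraries were spread, the second being the lowest, but did not overlap shControl, and the log2 fold change was 0.95 (95% interval 0.70 to 1.20, limma adjusted p = 0.0012). Vehicle libraries held 5586, 4030.1 and 4907 normalized counts of Parp10, MS023 libraries 7578, 7428 and 8107 and GSK3368715 libraries 7232, 6847 and 6496. All MS023 values lay above all GSK3368715 values, and both groups above vehicle. Parp10 changed by 0.68 (95% interval 0.46 to 0.90, limma adjusted p = 8.6e-04) with MS023. With GSK3368715 the change was 0.51 (95% interval 0.29 to 0.73, limma adjusted p = 0.012). It shares 205 bp of exon on the same strand with Plec, the gene of the cytoskeletal linker plectin, whose log2 fold change was -0.0079 in the knockdown (limma adjusted p = 0.95), -0.28 with MS023 (0.25) and 0.05 with GSK3368715 (0.89).

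PARP11 acts at the nuclear envelope and has been tied to turnover of the interferon receptor. The gene lies at chr6:127446840-127494261 on the plus strand. Its promoter 1 carried both elements among the 7 promoters searched, which left out Parp9, Parp14 and Parp10. Parp11 measured 368, 356 and 367 normalized counts with the control hairpin, against 520.1, 491 and 491 after Prmt1 depletion. Its values were tight in both groups and separate between them, with a log2 fold change of 0.46 (95% interval 0.28 to 0.64, limma adjusted p = 0.0075). For the inhibitors, Parp11 stood at 3693, 2807 and 3095 normalized counts under vehicle, 4059, 3978 and 4163 under MS023 and 3832, 4083 and 3657 under GSK3368715. The first vehicle library was high and lay above the third GSK3368715 library, so those groups overlapped, while MS023 stayed clear of vehicle. The log2 fold change was 0.36 (95% interval 0.16 to 0.55, limma adjusted p = 0.013) with MS023. With GSK3368715 it was 0.28 (95% interval 0.08 to 0.47, limma adjusted p = 0.075) and was not called, and without the first vehicle library it was 0.39 (limma adjusted p = 0.0076).

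PARP3 is known mainly for work with PARP1 and PARP2 in the repair of broken DNA. Parp3 (chr9:106470322-106476949, minus strand) measured 479, 436 and 494 normalized counts with the control hairpin, against 661, 521 and 628 after Prmt1 depletion. The groups did not overlap, but the second shPrmt1 library came close to the highest shControl library. The log2 fold change of 0.36 (95% interval 0.11 to 0.60, limma adjusted p = 0.062) was not called. With all 6 libraries it was called by DESeq2 on recovered reads (adjusted p = 0.025) and in limma with the replicate block (adjusted p = 0.019), and without the second shPrmt1 library it was 0.46 (limma adjusted p = 0.0057). Vehicle libraries held 1892, 1745 and 2003 normalized counts of Parp3, MS023 libraries 2674, 2280.5 and 2615 and GSK3368715 libraries 2891, 2325 and 2464. Both treated groups were above vehicle in every library. Parp3 changed by 0.42 (95% interval 0.22 to 0.63, limma adjusted p = 0.0074) with MS023. Its change with GSK3368715 was 0.44 (95% interval 0.24 to 0.65, limma adjusted p = 0.016). Parp3 shares 20 bp of exon with Rrp9 on the opposite strand, and Rrp9, a nucleolar RNA processing gene, had log2 fold changes of -0.27 in the knockdown (limma adjusted p = 0.22), -0.18 with MS023 (0.055) and -0.0045 with GSK3368715 (0.97).

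Parp1 and Parp2, the DNA-break sensors, did not rise in any comparison. Parp1 (chr1:180568924-180601254, plus strand) measured 5416, 5305 and 5448 normalized counts with the control hairpin, against 4818, 4182 and 4571 after Prmt1 depletion. All shPrmt1 values were below all shControl values, and limma called the gene lower, with a log2 fold change of -0.25 (95% interval -0.41 to -0.10, limma adjusted p = 0.036), where 7.17% of all genes were called lower. The call did not hold without each shControl library in turn or without shPrmt1 3 (limma adjusted p = 0.083 to 0.14), nor with the libraries rescaled to the same total. Parp2 (chr14:50807841-50821301, plus strand) measured 740.4, 694 and 742 normalized counts with the control hairpin, against 727, 788 and 640.0 after Prmt1 depletion. These groups overlapped, and the log2 fold change was -0.02 (95% interval -0.23 to 0.19, limma adjusted p = 0.91). For the inhibitors, Parp1 stood at 12642, 14464 and 13320.1 normalized counts under vehicle, 12630.5, 12307 and 12808 under MS023 and 13767, 12330.5 and 13979 under GSK3368715. Parp2 had 2538, 2212 and 2575 under vehicle, 2509, 2637 and 2264 under MS023 and 2512, 2561 and 2419.6 under GSK3368715. All these groups overlapped vehicle, and 0 of the 4 comparisons was called. The log2 fold change of Parp1 was -0.10 with MS023 (interval -0.24 to 0.05) and -0.01 with GSK3368715 (interval -0.15 to 0.13). For Parp2 it was 0.02 (-0.15 to 0.19) and 0.04 (-0.13 to 0.20).

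**Figure D3:**
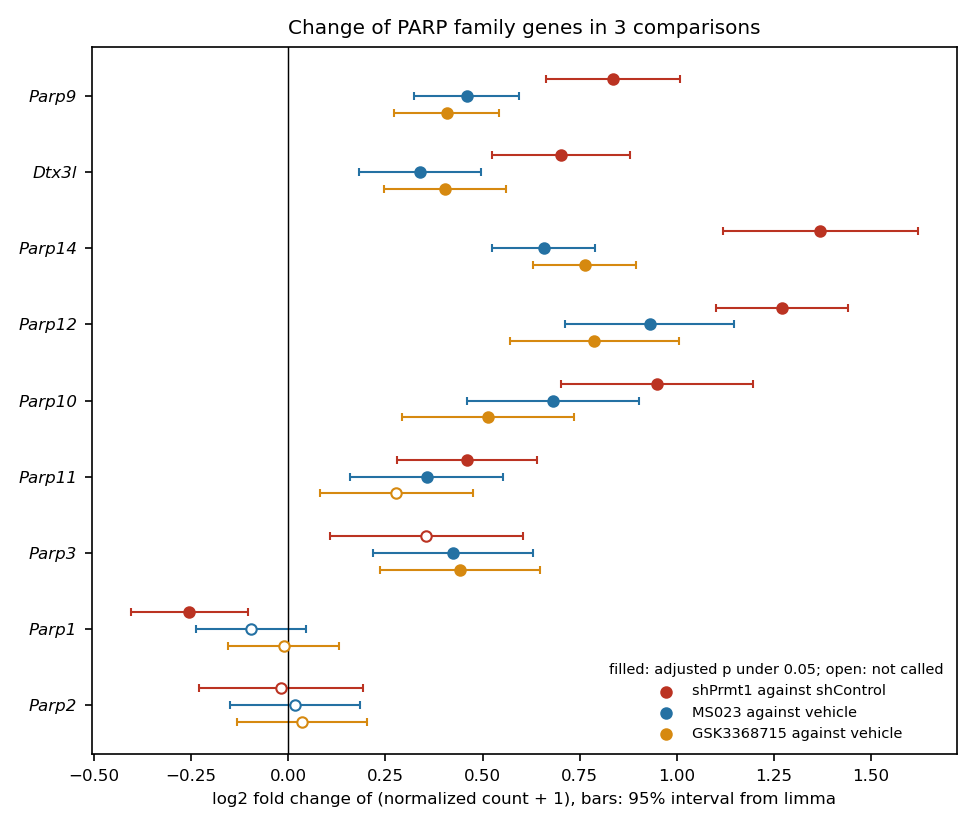
Log2 fold change of (normalized count + 1) (x axis) with its 95% interval from limma for the 9 genes in 3 comparisons. Symbols are filled where the adjusted p-value was under 0.05. The interferon-linked members lie to the right of 0 in each comparison, from 0.28 to 1.37, and open symbols mark Parp3 in the knockdown and Parp11 with GSK3368715. Parp1 and Parp2 lie at -0.25 to 0.04.

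The interferon-linked members were next set against Parp1 and Parp2 directly, by subtracting the mean log2 value of this pair in each library from every gene and refitting limma. All 7 members were then called higher in the knockdown, 7 with MS023 and 6 with GSK3368715, where 16.5%, 15.3% and 3.73% of all genes were called higher. In the knockdown the pair itself was at -0.25 (Parp1) and -0.02 (Parp2), and subtracting it raises every gene. On this scale the median log2 fold change of all genes was itself 0.13 in the knockdown, beside 0.97 for the 7 members, and the members' changes are to be read against that shift. With MS023 and GSK3368715 the median of all genes was 0.04 and -0.01. Parp3 in the knockdown was at 0.49 (limma adjusted p = 0.013) relative to the pair, beside 0.36 (limma adjusted p = 0.062) before the subtraction. Its call relative to the pair did not hold without shPrmt1 3 (limma adjusted p = 0.058). Parp11 with MS023 lost its call without MS023 3 (limma adjusted p = 0.051), and Parp3 with GSK3368715 without GSK3368715 1 (0.059). Without a trend in eBayes only 3 members kept a call with GSK3368715, those of Dtx3l (limma adjusted p = 0.051), Parp10 (0.055) and Parp3 (0.052) being lost. Parp11 with GSK3368715 was at 0.27 (limma adjusted p = 0.12) and was not called.

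Whether the compounds differed in their effect on these genes was tested directly, at the same dose and time, by the contrast of GSK3368715 with MS023 libraries, 9 differences in all with p-values adjusted over all genes. None of the 9 genes was called by limma, where 0.515% of all genes were. For the 7 interferon-linked members the log2 difference, GSK3368715 minus MS023, ran from -0.17 for Parp10 (interval -0.39 to 0.05, unadjusted p = 0.12) to 0.11 for Parp14 (interval -0.03 to 0.24, unadjusted p = 0.11), both from limma. These are the members whose treated groups did not overlap, 2 of 7, as for 21.4% of all genes. The sign was not shared over the 7, being negative for 4 members and positive for 3. Parp12 was at -0.14 (-0.36 to 0.08), Parp11 at -0.08 (-0.27 to 0.12) and Parp9 at -0.05 (-0.19 to 0.08). Dtx3l was at 0.07 (-0.09 to 0.22) and Parp3 at 0.02 (-0.19 to 0.22). Each interval contains 0 and allows a difference in either direction, so equal effects are not shown. At an unadjusted p under 0.05, 0 of the 9 genes passed, and 0 of the 7 passed the adjusted threshold with edgeR or DESeq2 on the recovered reads.

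**Figure D4:**
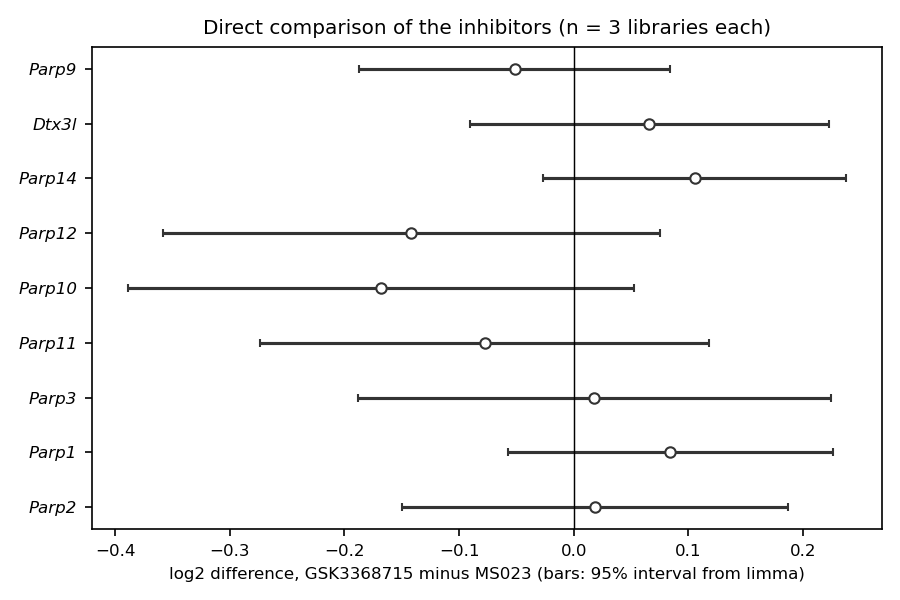
Log2 difference between GSK3368715 and MS023 libraries (x axis) with its 95% interval from limma for each gene. Points lie from -0.17 (Parp10) to 0.11 (Parp14), and every interval crosses 0.

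For all 7 interferon-linked members, the fold between the control means of the experiments in RPM was larger than that between treated and control means within either experiment. For Parp3 these were close, 1.41-fold between the controls beside 1.32-fold in the knockdown, 1.37-fold with MS023 and 1.38-fold with GSK3368715. Parp14 was at 14.2 ± 0.808 RPM (SD, n = 3) in shControl and 118 ± 8.01 in vehicle libraries, 8.31-fold higher in vehicle. Parp12 was 4.37-fold higher in vehicle, Parp10 4.15-fold, Dtx3l 3.65-fold, Parp9 3.53-fold and Parp11 3.10-fold. Parp3, Parp2 (1.19-fold) and Parp1 (0.88-fold) differed less. In shPrmt1 libraries Parp14 was at 37.7 ± 4.52 RPM and Parp12 at 84.0 ± 4.04, below the 148 ± 23.7 of Parp12 in vehicle, and the same order held for Parp9, Dtx3l, Parp10 and Parp11, whose shPrmt1 libraries all lay below the vehicle libraries. The libraries come from separate experiments that were normalized separately, so hairpin, vehicle, depth and experiment cannot be told apart, and no test was made.

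**Figure D5:**
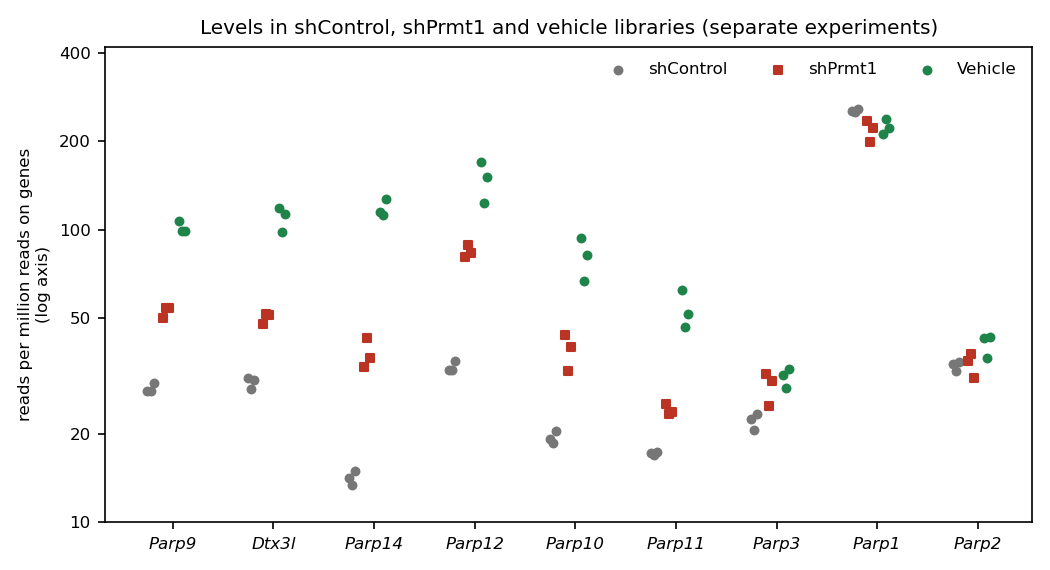
RPM, reads scaled to the total on genes (y axis, log scale) in each shControl, shPrmt1 and vehicle library (points, 3 per group) for the 9 genes. For Parp9, Dtx3l, Parp14, Parp12, Parp10 and Parp11 the shPrmt1 points lie between shControl and vehicle, whereas Parp1 and Parp2 lie close together in all 3 groups.

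Side by side, log2 fold changes were larger in the knockdown than with either inhibitor for 6 members, and smaller for Parp3. For Parp11 the order turned when a library was left out, up to 0.464 with MS023 beside 0.459 in the full knockdown fit. The order of Parp3 turned relative to Parp1 and Parp2, at 0.49 in the knockdown beside 0.46 with MS023 and 0.43 with GSK3368715, and without shPrmt1 2, at 0.46 beside 0.42 and 0.44 on the original scale. For Parp14 the log2 fold changes were 1.37 in the knockdown, 0.66 with MS023 and 0.76 with GSK3368715, and for Parp12 1.27, 0.93 and 0.79. The difference between knockdown and inhibitors was not tested. Parp14 over Parp1, in normalized counts within a library and not per length, went from 0.053 to 0.058 in shControl to 0.144 to 0.214 in shPrmt1 libraries. In the inhibitor experiment it went from 0.469 to 0.571 in vehicle to 0.831 to 0.935 in MS023 and 0.845 to 1.003 in GSK3368715 libraries.

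To compare levels between genes, normalized counts were divided by the length of the longest coding transcript of each gene. On this scale of normalized counts per kb, Parp1 was the highest in shControl libraries at 1392 ± 19.4 (SD, n = 3), followed by Parp2 at 383 ± 14.4 and Parp12 at 223 ± 9.12. Parp9 and Parp3 overlapped in range, as did Parp10 and Dtx3l, and Parp11 and Parp14, at 40.5 ± 2.36, were the lowest. In shPrmt1 libraries Parp12, at 538 ± 32.1, stood above Parp2 at 379 ± 39.2, while Parp14 was still the lowest at 105 ± 13.8. In vehicle libraries Parp1 led at 3479 ± 238, above Parp12 at 2755 ± 418 with no overlap, and Parp3 was the lowest at 635 ± 43.8. With MS023 the order at the top changed, Parp12 at 5209 ± 94.8 above Parp1 at 3249 ± 65.6, and likewise with GSK3368715, at 4731 ± 386 and 3449 ± 232. Dtx3l and Parp14 overlapped in range with both compounds and lay above Parp2.

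Among all genes, those whose pattern was most like these members were found by Pearson correlation of log2(normalized count + 1), centred on the control mean of each experiment, over the 15 libraries and 11470 genes tested in both fits. These libraries share treatments and controls, and differ in depth, so the values are descriptions. Nearest to Parp9 were Cmpk2 (r = 0.991), Gbp7 (0.987), Rsad2 (0.985), Herc6 (0.984) and Igtp (0.983). Parp14 was nearest to Gbp7 (0.988), Iigp1 (0.984), Cmpk2 (0.982), Dtx3l (0.979) and Rsad2 (0.979), and Parp12 to Gbp2 (0.994), Gbp2b (0.986), Gbp3 (0.985), Rsad2 (0.985) and Mx1 (0.982). Rsad2 was thus among the nearest genes of all 3 members, and Cmpk2 and Gbp7 of Parp9 and Parp14. In the order for Parp9, Parp14 ranked 16, Parp12 20, Dtx3l 28, Parp10 111 and Parp11 162. Parp3, in the list but not close to it in pattern, was at rank 1262 (r = 0.686), and Parp2 was at 5647 (-0.0074) and Parp1 at 10999 (-0.80).

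The other genes of ADP-ribosylation are given by lists. Of 8 further PARP genes (Parp4, Parp6, Parp8, Parp16, Tiparp, Zc3hav1, Tnks and Tnks2), 0 were called in the knockdown, and 1, Parp16, was called lower with each inhibitor, where 14.1% of all genes were called lower with MS023 and 4.47% with GSK3368715. Parp16, an enzyme of the endoplasmic reticulum, averaged 559 ± 20.5 normalized counts (SD, n = 3) under vehicle, 382 ± 21.2 under MS023 and 425 ± 12.9 under GSK3368715. Its log2 fold change was -0.55 with MS023 (limma adjusted p = 8.8e-04), -0.39 with GSK3368715 (0.015) and -0.42 in the knockdown (0.057). Zc3hav1, the antiviral zinc finger PARP and itself known to be induced by interferon, is named after its values were seen. It stood at 0.18 in the knockdown (limma adjusted p = 0.12), 0.18 with MS023 (0.083) and 0.16 with GSK3368715 (0.18). Of the other deltex genes, 2 of 4 were tested in the knockdown with 0 called, and 3 of 4 in the inhibitor fit. There 1 of the 3, Dtx2, was called higher with MS023, as were 13.7% of all genes. Dtx2 was at 0.27 with MS023 (limma adjusted p = 0.013) and at 0.0038 with GSK3368715 (0.98).

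Of 10 genes that remove ADP-ribose or assist its transfer, 8 were tested. Of these, 1 was called lower in the knockdown, 2 were called lower with MS023 and 0 were called with GSK3368715. Over all genes, 7.17%, 14.1% and 4.47% were called lower in the same order. Adprh, which removes ADP-ribose from arginine, fell from 470.0 ± 14.9 (SD, n = 3) normalized counts in shControl to 293 ± 43.2 after depletion, a change of -0.69 on the log2 scale (limma adjusted p = 0.0070). With MS023 Adprh fell from 1552 ± 139 in vehicle to 1135 ± 70.9, a change of -0.45 on the log2 scale (limma adjusted p = 0.0048), and with GSK3368715 it was at -0.29 (0.071). Macrod1, a macrodomain hydrolase, was lower with MS023 at -0.999 (limma adjusted p = 0.0021), from 162 ± 18.0 to 81.1 ± 14.7 normalized counts. It was not called with GSK3368715 at -0.30 (limma adjusted p = 0.30) or in the knockdown at -0.50 (0.26). The direct difference between the compounds was not called for Macrod1 (limma adjusted p = 0.12). Of 12 genes of NAD supply and use, 6 were tested in the knockdown and 8 in the inhibitor fit, and Bst1, an ADP-ribosyl cyclase that uses NAD, was the 1 called, where 13.7% of all genes were called higher with MS023, so the count is no result about this list. Bst1 was at 1.77 with MS023 (limma adjusted p = 0.0025), from 26.4 ± 12.8 to 86.8 ± 11.1 normalized counts. With GSK3368715 Bst1 was at 1.09 (limma adjusted p = 0.054) and was not called. Its direct difference between the compounds was not called (limma adjusted p = 0.39).

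Genes of the STAT and IRF families carry the interferon signal. Over all genes, 7.5% were called higher in the knockdown, 13.7% with MS023 and 5.16% with GSK3368715. Stat2 was at 0.60 on the log2 scale in the knockdown (limma adjusted p = 0.0034), 0.66 with MS023 (3.7e-04) and 0.59 with GSK3368715 (0.0029). Irf7 was at 1.80 (limma adjusted p = 5.1e-05), 0.93 (0.0011) and 0.68 (0.017) in the same order. Both were thus called in all 3 comparisons. Irf9, a subunit of the complex that binds the response element, was called in the knockdown at 0.64 (limma adjusted p = 9.6e-04) but was at 0.27 with MS023 (0.061) and 0.26 with GSK3368715 (0.11). Irf1 was at 0.14 in the knockdown (limma adjusted p = 0.25), and was called at 0.48 with MS023 (0.0013) and 0.50 with GSK3368715 (0.0041). Differences between the knockdown and the inhibitors in these genes were not tested.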

How the data were processed

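RNA was sequenced from 15 libraries of CT26 cells in a knockdown and an inhibitor experiment. The authors quantified reads with Salmon 1.4.0 on mm10, and the deposited values per gene and library are a normalized signal, gene counts divided by DESeq2 size factors, that is not raw counts. For each library 100% of the values were whole multiples of its smallest value within 0.01, from which whole counts were recovered. These are counts per gene as estimated by Salmon, not reads observed one by one, and are called reads here. The authors' tables of fold changes and p-values were not used. Library preparation is stated without a strand protocol, and the DESeq2 version of the authors is not given in the sources used here.

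Genes that reached 10 normalized counts in 3 or more libraries were tested by limma 3.58.1 (lmFit, eBayes with a trend, R 4.3.3) on log2(value + 1), which understates the change of low genes, two-sided with Benjamini-Hochberg adjustment over all genes tested and a threshold of 0.05. The knockdown fit held 6 libraries and 11485 genes, and the inhibitor fit 9 libraries and 13014 genes, with contrasts for each compound and between them. A further fit used values relative to Parp1 and Parp2. The experiments were not tested against each other. The tests of the knockdown and of MS023 were checked on simulated data, with changes larger than those of the members with either inhibitor. The GSK3368715 contrast, the contrast between the compounds and the fit relative to the pair were not checked in this way. Alternative settings changed the pseudocount (0.5 or 5), the filter (none, or 50 counts), the scaling (equal upper quartiles or equal totals), the eBayes trend, the replicate block and the groups in the fit, used edgeR 4.0.16 or DESeq2 1.42.0 on recovered reads, or left out each library in turn. Recovered reads carry no molecular identifiers.

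Positions and overlaps are from GENCODE M21 on mm10. With blastn 2.17.0, 0 of the 9 members had a copy in another gene at 95% identity over 30% of the transcript. The members, lists and rules were chosen with earlier results of these data known. All 9 members passed the filter and are named in every comparison. Genes of other lists are named where called in the knockdown and in an inhibitor comparison, or where they had the largest change called in their list, and Zc3hav1, Irf9 and Irf1 were added after their values were seen. A further gene of the STAT and IRF list is not reported here, so no count over that list is given.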

Additional observations from a re-analysis of the deposited data

How the results depend on the processing

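The number of interferon-linked members called in each comparison with control stayed at 6 or 7 under the alternatives run, and at 0 for GSK3368715 minus MS023. Relative to Parp1 and Parp2 it was 6 or 7 as well, except that without a trend in eBayes GSK3368715 had 3 in place of 6 (limma adjusted p = 0.051 for Dtx3l, 0.055 for Parp10 and 0.052 for Parp3), and except for the fits without a library. The cause was not tested. Leaving out each library in turn gave 6 to 7 members in the knockdown, 7 with MS023, 6 to 7 with GSK3368715 and 0 for the difference, and, relative to the pair, 6 to 7, 6 to 7 and 5 to 7. Parp11 with MS023 lost its call relative to the pair without MS023 3 (limma adjusted p = 0.051), and Parp3 with GSK3368715 without GSK3368715 1 (0.059), while Parp11 with GSK3368715 gained one without Vehicle 1 (0.014).

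Of single genes, Parp3 in the knockdown was called with DESeq2 (adjusted p = 0.025) and Parp11 with GSK3368715 as well (0.037). The lower call of Parp1 in the knockdown was lost without a trend (limma adjusted p = 0.082) and with equal totals (0.065). Signs turned for values near 0 that were not called. With equal totals these were Parp2 in the knockdown (0.014), Parp1 with GSK3368715 (0.0022), and, for GSK3368715 minus MS023, Parp3 (-0.0019) and Parp2 (-0.0014). Leaving out a library moved Parp2 from -0.088 to 0.062 in the knockdown, from -0.053 to 0.078 with MS023 and from -0.034 to 0.076 with GSK3368715. It moved Parp1 with GSK3368715 from -0.057 to 0.044, and, for GSK3368715 minus MS023, Parp3 from -0.073 to 0.085 and Parp2 from -0.043 to 0.067.

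Over all genes, the share called higher in the knockdown rose with equal totals, 1082 of 1748 beside 861 of 1684, and with MS023 2200 of 3709 beside 1784 of 3625. The count for the knockdown ran from 652 (without shControl 1) to 2472 (without shPrmt1 2), with 883 without shControl 2, 723 without shControl 3 and 1072 without shPrmt1 3. It was 2409 for MS023 without MS023 2. For GSK3368715 it was 1254, beside 597 with the groups compared alone and 586 without Vehicle 3, 757 without GSK3368715 1 and 778 without GSK3368715 3. The 67 genes that differed between the compounds became 38 with no filter, 8 without a trend, 365 with DESeq2 and 2 to 114 without a library.

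Whether replicate numbers pair the libraries was not settled. In the knockdown, same-numbered libraries of different groups had correlations of their deviations of 0.06 to 0.12, beside -0.09 to 0.03 for differently numbered ones. Each library there correlated best with its own number, a hint from the data. In the inhibitor experiment the same-numbered libraries had -0.10 to 0.11, beside -0.13 to 0.17 for differently numbered ones. With the replicate block the members called were 7 in the knockdown (Parp3 gained, limma adjusted p = 0.019), 7 with MS023, 6 with GSK3368715 and 0 for the difference, relative to the pair 7, 7 and 6, and over all genes 2671 in the knockdown and 4 between the compounds. With 3 libraries a group, small changes such as those of Parp3 and Parp11 are at the limit of what these data can call.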
